A study of Mus musculus with 2 samples.

Results

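The SCL, LYL1 and LMO2 complex is the set of blood transcription factors and adaptor proteins that assembles around GATA-1 on DNA. It is described here by 8 genes: the factors Tal1 (also called Scl) and Lyl1, the LIM-only genes Lmo2 and Lmo4, the adaptor gene Ldb1, its partners Ssbp2 and Ssbp3, and the corepressor gene Cbfa2t3 (also called Eto2). Members were all probe sets whose only gene symbol in the platform annotation was 1 of these, which gave 15 of the 45037 probe sets that are not array controls, and 8 of 18193 genes. A search by gene identifier found the same number, 15, and 0 probe sets were shared between a member and another gene.

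G1E cells are a mouse erythroid progenitor line without GATA-1, and all cells here carried ER-GATA-1(V205G). This fusion protein joins an estrogen receptor domain to a form of GATA-1 with poor binding to FOG-1, and estradiol activates it. The estradiol group was 1 array of cells given 1 µM estradiol for 24 h, and the untreated group was 1 array of cells before treatment, at 0 h. The sources used here do not say whether the line was 1 clone. Neither cells kept for 24 h without estradiol nor cells lacking the fusion were among the samples, so the mutant, estradiol itself and time in culture cannot be told apart. No difference below has a replicate check, a p-value or an SD between cultures.

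TAL1 and LYL1 are related basic helix-loop-helix proteins. Each pairs with an E protein, such as the products of Tcf3, to bind a short DNA motif called the E-box. LMO2 has no DNA contact of its own and bridges that pair to LDB1 and, in erythroid cells, to GATA-1 on a nearby GATA motif. LDB1 binds itself and so can hold distant sites together, SSBP proteins bind LDB1 and protect it from degradation, and the CBFA2T3 protein brings repressing enzymes to the complex. The complex is known for switching on red cell genes and for maintaining early blood progenitors.

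The levels of these transcripts differed in both directions between the arrays. Lyl1 was 2.79-fold lower with estradiol, Ssbp2 1.87-fold lower and Tal1 1.48-fold lower, while Lmo2 was 1.62-fold higher. The other members, Ldb1, Ssbp3, Lmo4 and Cbfa2t3, lay within 1.5-fold on their brightest probe sets. Of the 8 members 1 was at least 2-fold lower, where 1.10% of all 10240 measured genes were, and 0 were at least 2-fold higher, where 2.04% of all genes were. The count of 1 is a single gene, Lyl1. At 1.5-fold 2 members were lower (Lyl1 and Ssbp2), where 4.85% of all genes were, and 1 was higher (Lmo2), where 7.11% were. The members' median log2 ratio was -0.32, against 0.00 for all measured genes, with 5 members below 0 and 3 above.

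Sequences upstream of both basic helix-loop-helix genes are shown because both transcripts were lower with estradiol, and because the complex itself binds E-boxes and GATA motifs. They are from RefSeq on build GRCm38.p6, plus strand, and end at the last base before the gene's first annotated base. In the Tal1 and Lyl1 sequences capitals mark a GATA motif or an E-box (CANNTG), searched on both strands, with no overlap between the marked letters. A GATA motif is the letters GATA with A or T before them and A or G after them. In the Cbfa2t3 sequence capitals mark an E-box and the letters GATA, with no condition on the bases beside GATA. The Tal1 stretch is chr4:115056176-115056425, 250 bases. The Lyl1 stretch is chr8:84701207-84701422, 216 bases. The third sequence is the only match among the members' windows to an E-box followed by GATA with 7 to 9 bases between them, at Cbfa2t3, chr8:122699208-122699226, written on the plus strand, the strand opposite to the gene.
Tal1: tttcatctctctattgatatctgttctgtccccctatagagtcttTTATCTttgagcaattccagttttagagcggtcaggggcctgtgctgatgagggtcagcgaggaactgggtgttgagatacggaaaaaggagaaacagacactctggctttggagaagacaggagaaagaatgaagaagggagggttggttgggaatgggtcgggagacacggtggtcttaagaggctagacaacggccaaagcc
Lyl1: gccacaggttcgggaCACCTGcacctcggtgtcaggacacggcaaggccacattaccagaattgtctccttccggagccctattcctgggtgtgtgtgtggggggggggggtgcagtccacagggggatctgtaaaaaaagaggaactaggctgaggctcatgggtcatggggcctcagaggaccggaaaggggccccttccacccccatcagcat
Cbfa2t3: CAGCTGtgtcacagtGATA

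The Tal1 stretch held 1 GATA motif, of 6 letters and with its nearest base 200 bases before the gene, and no E-box. The Lyl1 stretch held 1 E-box, with its nearest base 196 bases before the gene, and no GATA motif. The Cbfa2t3 match has 9 bases between its E-box and GATA with 98 bases between the match and an annotated transcript start, and it lies within the gene as annotated from its outermost start. In RefSeq, 7 members had a window of 250 bases before a transcript start, 14 windows in all since some genes have several starts. Lmo2 had none. A GATA motif was found in 4 of the 14 windows, against 26.5% of all 32851 windows, an E-box in 7 of 14, against 66.2%, and the pair at the stated spacing in 1 of 14, against 1.42%. Some windows of the same gene overlap, as at Lmo4, so the same E-box may be counted more than once. Motif matches are letters in a window and are no evidence of binding.

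Signals are the deposited linear intensities, 1 per probe set, after a common scaling that left them almost as deposited. A probe set counts as measured when both arrays reach the floor, a signal of 95.2, which is the 50th percentile over both arrays. A gene is represented by its brightest probe set. A log2 ratio is always estradiol over untreated. The scale for reading it is the pooled SD that log2 ratios show among probe sets of a single gene, which was 0.22 for genes in the highest tertile of signal and 0.27 in the middle tertile, so that 2 SD are 0.44 and 0.54. That SD holds probe noise and differences between transcript forms, and no differences between cultures. In this bulk RNA, fewer cells of a type and less RNA per cell cannot be told apart. Of the 15 member probe sets 12 were measured on both arrays, 2 reached the floor in untreated cells only and 1 on neither array, so all 8 genes had a measured value.

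**Figure D1:**
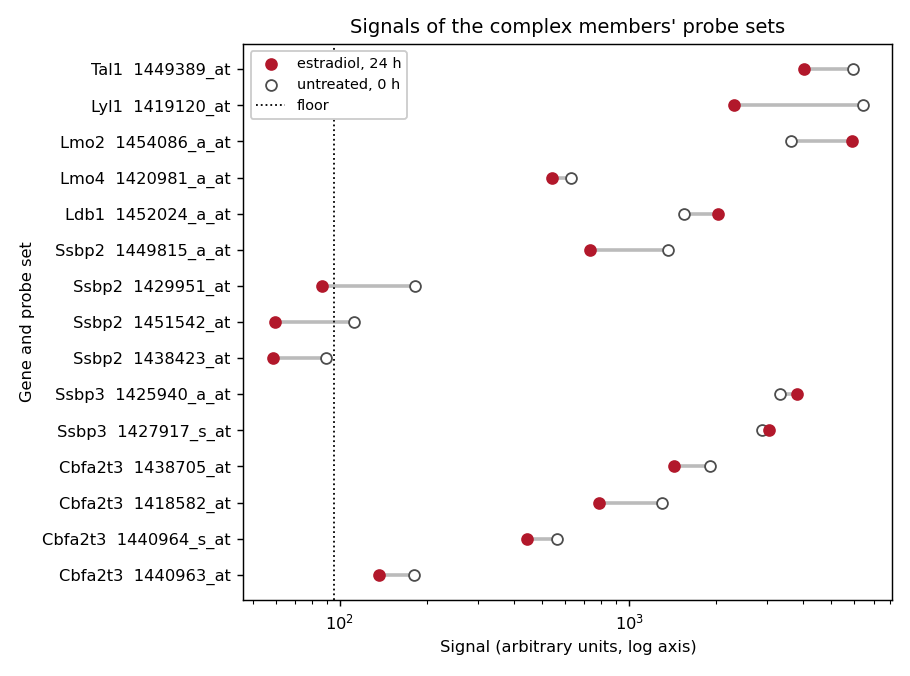
Signal (arbitrary units, log axis) of each of the 15 member probe sets, 1 per row with its gene, in the estradiol array (filled) and the untreated array (open), with the floor of 95.2 as a dotted line. The largest gap on the log scale is that of Lyl1, all 4 probe sets of Cbfa2t3 and all 4 of Ssbp2 have the filled point on the left, and Lmo2, Ldb1 and both of Ssbp3 have it on the right.

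Lyl1 encodes the basic helix-loop-helix factor that overlaps in function with TAL1 in blood stem cells and progenitors. Its single probe set, 1419120_at, had a signal of 2305 with estradiol and 6429 untreated. The estradiol array thus retained 35.9% of the untreated signal, a log2 ratio of -1.48, several times the SD of 0.22 between probe sets of bright genes. Lyl1 ranked as the 30th lowest of 10240 measured genes. Among the 3413 genes in the same tertile of signal, 10 were as low or lower, Lyl1 included, and 0.850% of that tertile was at least 2-fold lower. With 1 probe set, no second sequence of the transcript checks this value.

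Tal1 encodes SCL, which erythroid cells need for their maturation. Its probe set, 1449389_at, read 4026 with estradiol and 5947 untreated, a log2 ratio of -0.56. This lies past 2 SD of 0.44, short of 1.5-fold, and 134 of 3413 genes of like signal (3.93%) were as low or lower. Tal1 and Lyl1 therefore stood on the same side of 0 and apart in size: the log2 ratio of Lyl1 minus that of Tal1 was -0.92, where 2 SD of a difference between bright genes is 0.63. The signals of Tal1 and Lyl1 come from different probes, so which transcript was more abundant cannot be read from them.

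Lmo2 encodes the LIM-only bridge between the E-box-binding pair and LDB1. It read 5906 with estradiol and 3637 untreated on its single probe set, 1454086_a_at, a log2 ratio of 0.70. Lmo2 was the only member that was higher by more than 2 SD, and 132 of 3413 genes of like signal (3.87%) were as high or higher. Lmo4, which encodes a related LIM-only protein that also binds LDB1, read 541 with estradiol and 630 untreated on 1420981_a_at. Its log2 ratio of -0.22 was within 2 SD for genes of its signal (0.54). The log2 ratio of Lmo2 exceeded that of Lmo4 by 0.92, against 2 SD of 0.70 for such a difference.

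Ldb1 encodes the LIM-domain-binding adaptor at the centre of the complex. Its probe set, 1452024_a_at, read 2023 with estradiol and 1549 untreated, a log2 ratio of 0.38. This lies within 2 SD (0.44), and 330 of 3413 genes of like signal (9.67%) were as high or higher, so Ldb1 had no difference beyond the probe-set spread.

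The genes of the single-stranded DNA-binding proteins that attach to LDB1 parted from each other. Ssbp2 read 731 with estradiol and 1364 untreated on its brightest probe set, 1449815_a_at, a log2 ratio of -0.90, past 2 SD of 0.54. Of the 3414 genes in the middle tertile of signal 72 (2.11%) were as low or lower. The other Ssbp2 probe sets were dim. The probe set 1429951_at read 87.0 with estradiol, below the floor, and 182 untreated, at least 1.92-fold lower against the floor. The probe set 1451542_at read 59.4 with estradiol and 112 untreated, at least 1.17-fold lower, and 1438423_at read 58.6 with estradiol and 89.8 untreated, both below the floor. All 4 Ssbp2 probe sets had the lower signal with estradiol, though only the brightest was measured on both arrays.

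Ssbp3 differed little. Its probe set 1425940_a_at read 3792 with estradiol and 3319 untreated, a log2 ratio of 0.19, and 1427917_s_at read 3046 with estradiol and 2887 untreated, a log2 ratio of 0.08. Both lie within 2 SD (0.44) and differ from each other by 0.11. The log2 ratio of Ssbp2 minus that of Ssbp3 was -1.09, where 2 SD of the difference is 0.70, and this was the widest gap among the 3 pairs of related members (Lyl1 and Tal1, Lmo2 and Lmo4, Ssbp2 and Ssbp3).

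Cbfa2t3 encodes ETO2, a corepressor of the complex in erythroid progenitors. It had 4 measured probe sets, all lower with estradiol. The brightest, 1438705_at, read 1428 with estradiol and 1903 untreated, a log2 ratio of -0.41. The probe set 1418582_at, made from a RefSeq mRNA record, read 784 with estradiol and 1303 untreated, and had the lowest ratio, -0.73. The ratio was -0.34 on 1440964_s_at, with signals of 444 with estradiol and 562 untreated, and -0.40 on 1440963_at, with 137 with estradiol and 180 untreated. The brightest is just inside the limit of 0.44, and which side of it the gene falls on depends on the probe set chosen. The mean over its probe sets was -0.47 ± 0.18 (SD over 4 probe sets of the same 2 RNA samples, which are not replicates). Of the 485 genes with 4 measured probe sets, 18.8% had all 4 below 0.

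**Figure D2:**
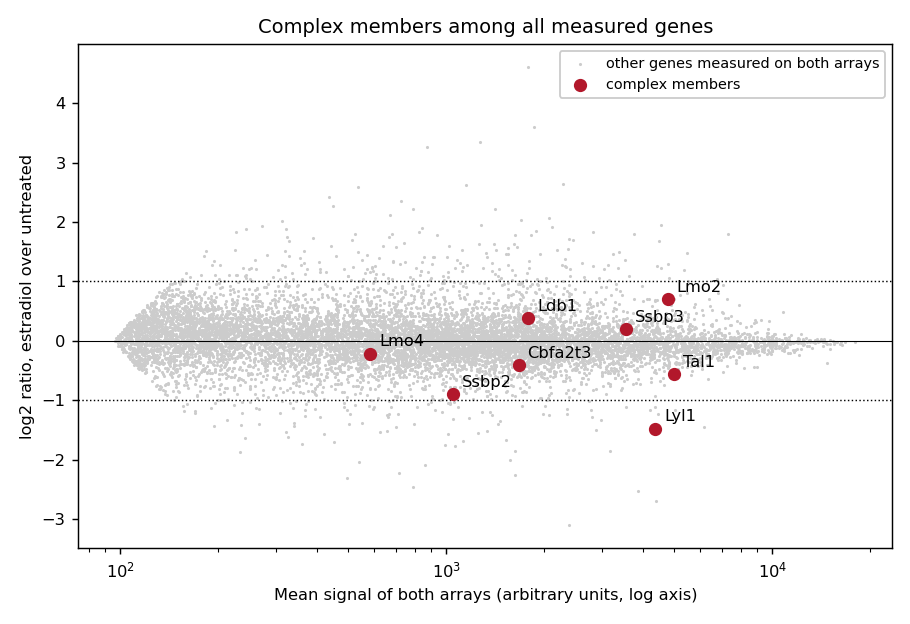
Log2 ratio of estradiol over untreated against the mean signal of both arrays (arbitrary units, log axis), 1 point per gene on its brightest probe set, for the 8 members (large, named) and all other measured genes (small grey), with 2-fold as dotted lines. Lyl1 at -1.48 is the only member past a dotted line, and Lmo2 at 0.70 is the highest member.

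Read against the probe-set spread of genes of like signal, 3 of the 8 members were lower by more than 2 SD (Lyl1, Ssbp2 and Tal1), where 5.95% of all measured genes were. Lmo2 was the 1 member higher by more than 2 SD, where 7.72% of all genes were, and 4 members lay within 2 SD. Among the 12 measured member probe sets 1 was at least 2-fold lower, where 1.01% of all measured probe sets were, and 0 were at least 2-fold higher, where 2.03% were. Of the same 12, 8 were below 0 and 4 above, with a median of -0.37, against 47.6% below 0 and a median of 0.02 over all 21054 measured probe sets. Probe sets of the same gene read the same RNA, so these 12 values stand for 8 genes, of which Cbfa2t3 alone gives 4.

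The E proteins that pair with TAL1 and LYL1, and the Id proteins that sequester E proteins, included 1 gene past 2-fold of 4 measured, where 3.14% of all measured genes were past it either way. Tcf3, which encodes the E2A proteins, read 1814 with estradiol and 3685 untreated, 2.03-fold lower, and its 3 probe sets had log2 ratios of -1.02 to -0.60. The other E protein genes, Tcf4 and Tcf12, had log2 ratios of -0.06 and -0.07 on their brightest probe sets. The measured probe sets ran from -0.43 to -0.04 for Tcf4 and from -0.57 to 0.21 for Tcf12. Id1 was the highest of the list at 0.89, with 1747 with estradiol and 945 untreated, and Id2, Id3 and Id4 were below the floor on both arrays. The 4 measured genes of this list had a median of -0.07, near the 0.00 of all genes.

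Among GATA factors and FOG cofactors 1 of 4 measured genes was at least 2-fold higher, where 2.04% of all measured genes were, and 0 lower, with a median of 0.05. Zfpm1, the FOG-1 gene, read 7485 with estradiol and 3271 untreated (2.29-fold higher), and Gata2 was the lowest at -0.45. The Gata1 probe set read 1191 with estradiol and 1264 untreated, but it is unknown whether its probes match the fusion transcript, and so this value is no check of the labels.

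Genes related to the members by sequence were mostly dim. Of 9 such genes (Tal2, Nhlh1, Nhlh2, Lmo1, Lmo3, Ldb2, Ssbp4, Cbfa2t2 and Runx1t1) 4 were measured, 4 were below the floor on both arrays, and Nhlh1 was below it with estradiol only. None of the 4 measured passed 2-fold in either direction, and their median was -0.21. Ssbp4, another gene of the family that binds LDB1, read 428 with estradiol and 584 untreated, the lowest log2 ratio among the 4 at -0.45. Nhlh1 read 91.6 with estradiol and 159 untreated, at least 1.67-fold lower against the floor. Cbfa2t2, which encodes another ETO-family corepressor, was the highest at 0.29. Tal2, a close relative of Tal1 and Lyl1, read 11.7 with estradiol and 79.5 untreated, both below the floor, so no ratio was formed. Differences in the paralogs that were measured thus stayed within the 2 SD of genes of their signal.

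The corepressors and coactivators known to join the complex showed no gene past 2-fold in 13 measured of 16 listed, with 5 above 0, 8 below and a median of -0.15. On brightest probe sets Sin3a, a scaffold of histone deacetylase complexes, was the lowest, with 780 with estradiol and 1336 untreated. Its log2 ratio was -0.78 and ranged up to -0.24 on its other probe sets. Irf2bp2 had -0.26 on its brightest probe set and as low as -0.95 on another. Klf1, an erythroid activator, was the highest at 0.62, with 6997 with estradiol and 4554 untreated. Gfi1b, a repressor that works with the complex, had 0.12. Kdm1a and Rcor1, the demethylase and its cofactor, had 0.23 and 0.24. Each of these 3 was within 0.44, the 2 SD of bright genes.

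Genes known from other work to be bound by the complex in blood cells included 2 red cell genes past 2-fold on the brightest probe set, Alas2 and Sptb. Of 19 listed genes that are not members 13 were measured, of which 2 were at least 2-fold higher, where 2.04% of all measured genes were, and 0 lower, with 8 above 0, 5 below and a median of 0.48, against 0.00 over all measured genes. Alas2, the first enzyme of heme synthesis in red cells, read 3430 with estradiol and 283 untreated (12.1-fold higher). Sptb, erythroid beta spectrin, was 2.76-fold higher on its brightest probe set, with a log2 ratio of 0.26 on the other. Slc4a1 and Ank1 had log2 ratios of 0.86 and 0.76 on their brightest probe sets, short of 2-fold. On other probe sets they reached 1.21 and 1.15, so which genes pass 2-fold depends on the probe set chosen. Gata2 was the lowest of those measured on both arrays at -0.45. Erg, an ETS-family factor gene, read 51.1 with estradiol, below the floor, and 153 untreated, at least 1.61-fold lower. This list was put together with earlier results of these data known, and it shares Klf1 and Runx1 with the cofactor list and Gata2 with the GATA list.

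**Figure D3:**
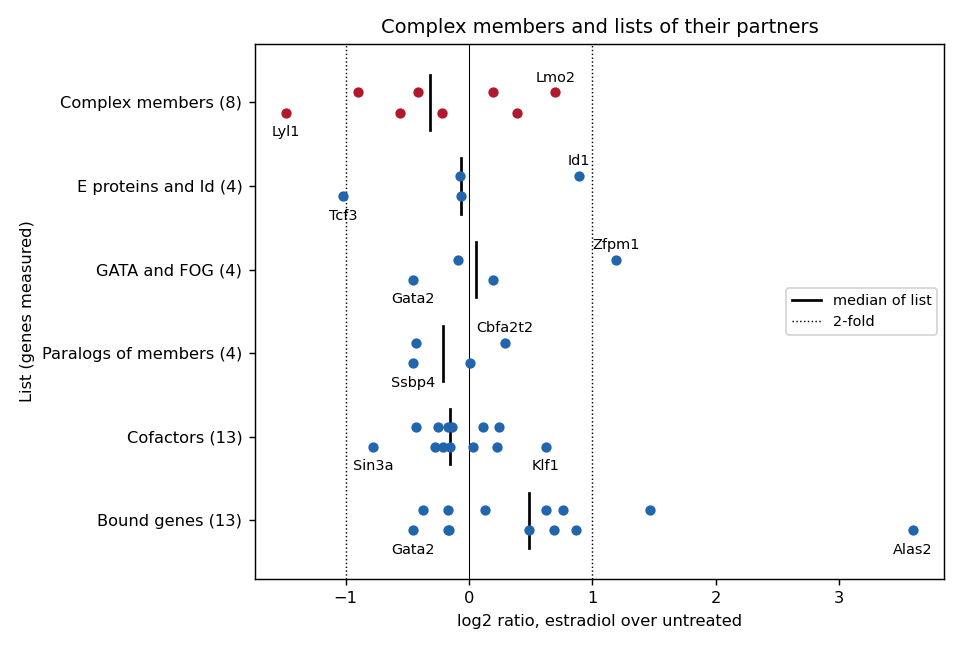
Log2 ratio of estradiol over untreated for the measured genes of each list, 1 point per gene (spread up and down only for legibility), with the list median as a black bar, 2-fold as dotted lines and the lowest and highest measured gene named. The members span -1.48 (Lyl1) to 0.70 (Lmo2), and the list of bound genes has the highest median, 0.48.

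Genes beside the members on the chromosome were read as a local comparison. For each member the 3 nearest measured protein-coding genes on each side were taken, in the RefSeq gene order of GRCm38.p6, 48 genes in all. None of the 48 was 2-fold higher or lower (background 3.14% either way), their median log2 ratio was -0.03, and 5 of 48 lay beyond 2 SD, against 13.7% of all measured genes. The neighbours of Lyl1 on chromosome 8 had log2 ratios from -0.52 (Nfix) to 0.13 (Gadd45gip1), against -1.48 for Lyl1 itself. The immediate neighbours were Nfix on one side and Trmt1, at -0.19, on the other, and all but Gadd45gip1 were below 0. Those of Tal1 on chromosome 4 ran from -0.21 (Pdzk1ip1) to 0.26 (Efcab14), with Stil, the gene before it, at -0.17. Those of Lmo2 on chromosome 2 ran from -0.36 (D430041D05Rik) to 0.28 (Fbxo3). In 6 of 8 cases the member's ratio was outside the range of its 6 neighbours, Lmo4 and Ssbp3 being the exceptions, where 28.0% of 9692 measured genes were outside the range of theirs.

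**Figure D4:**
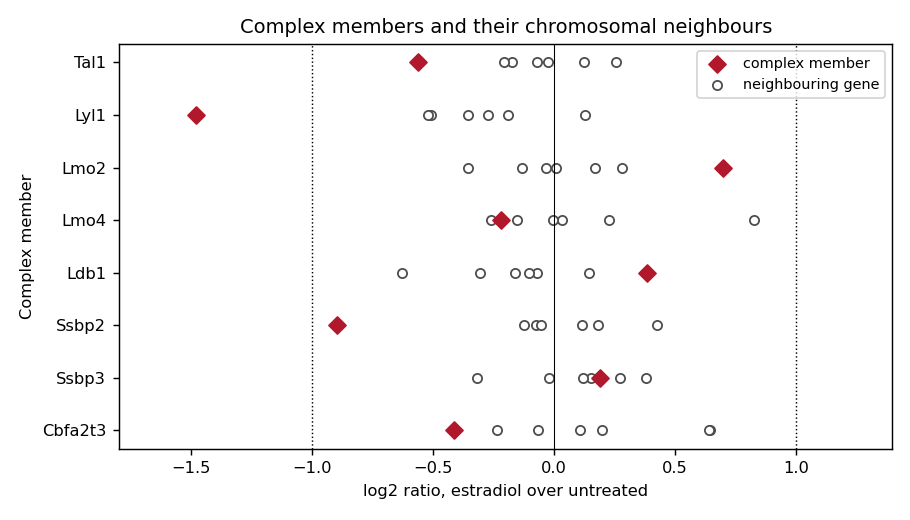
Log2 ratio of estradiol over untreated for each member (filled diamond) and its 6 nearest measured neighbours on the chromosome (open circles), 1 row per member, with 2-fold as dotted lines. Lyl1 at -1.48 is apart from its neighbours, which lie between -0.52 and 0.13.

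RNA quality controls and marker lists were read on both arrays, and a list's summed signal below covers the brightest probe set of each of its genes on the array, dim ones included. The ratio of 3' to 5' control signal was 1.16 with estradiol and 1.14 untreated for beta-actin, and 0.781 with estradiol and 0.798 untreated for Gapdh. For the transferrin receptor it was 2.04 with estradiol and 2.28 untreated, the widest gap of the 3. The 8 erythroid markers analysed here were all measured, with summed signals of 33678 with estradiol and 29260 untreated. Of 9 mast cell and basophil markers 4 were measured, and these went in both directions. Tpsab1 was 24.4-fold higher, with 3418 with estradiol and 140 untreated. Gzmb was 8.60-fold lower, Cpa3 5.77-fold lower and Ms4a2 2.65-fold lower on its brightest probe set. Hdc reached the floor with estradiol only (152 against 3.80 untreated, at least 1.59-fold higher), as did Tpsb2 (100 against 47.1, at least 1.05-fold higher). Fcer1a reached it untreated only (47.3 with estradiol against 144 untreated, at least 1.52-fold lower). The sum over the list was 6174 with estradiol and 13326 untreated, and Mcpt4 and Mcpt8 were below the floor on both arrays. The part of these mast cell genes in the lower Lyl1, Ssbp2 and Tal1 signals was not tested. Of 7 megakaryocyte markers 2 were measured (median log2 ratio 0.17), with list sums of 763 with estradiol and 713 untreated. Of 8 neutrophil and monocyte markers Csf1r alone was measured (0.22), with list sums of 642 with estradiol and 567 untreated. In that list Mpo reached the floor with estradiol only (137 against 85.0 untreated, at least 1.44-fold higher). Of 6 lymphoid markers Pax5 alone was measured (0.56), with list sums of 457 with estradiol and 312 untreated. Il7r, of the lymphoid list, reached the floor with estradiol only (186 against 62.8 untreated, at least 1.96-fold higher).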

How the data were processed

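Total RNA from 2 samples of G1E cells was measured on biotin-labelled short-oligonucleotide arrays, 1 array per group. The authors deposited a linear signal intensity for each probe set, made with Affymetrix GCOS per the submitters' processing notes. Its version and settings are not given in the sources used here. Both arrays had a trimmed mean of 500.0 over all 45101 probe sets (2% off each end). Genes were named through the platform annotation. The 64 array controls were left out and signals rescaled to 1 trimmed mean (factors 1.00006 for estradiol and 0.999941 for untreated). The 50th percentile of signal served as the floor. A ratio with 1 array below it is a bound against the floor, and none was formed with both below. With 1 array per group there was no test: a gene was counted at 2-fold, and the number of arrays limits the precision. All members and probe sets are named. In the partner lists, genes past 2-fold and the highest and lowest are named; others named were chosen after their values were seen. The neighbour and motif comparisons were added after the members' values were seen. Members and lists were chosen with earlier results of these data known. Alternatives covered scaling, floor, probe set and fold threshold. The steps were tested on simulated data. Loess used statsmodels 0.14.6 with a span of 0.3, figures matplotlib 3.10.9, and the rest pandas 2.3.3 and numpy 2.4.6 in Python 3.11.15.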

Additional observations from a re-analysis of the deposited data

How the results depend on the processing

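No paired analysis was possible because each group had 1 array. Under the 10 alternatives of scaling, floor and probe set, no member changed sign: Lyl1 stayed between -1.59 and -1.43, Tal1 between -0.67 and -0.51, Ssbp2 between -1.01 and -0.89, Cbfa2t3 between -0.73 and -0.39, Lmo4 between -0.33 and -0.21, Ssbp3 between 0.08 and 0.24, Ldb1 between 0.27 and 0.42 and Lmo2 between 0.59 and 0.75. Tal1, Lyl1, Lmo2, Lmo4 and Ldb1 have 1 probe set each, and Ssbp2 has 1 measured on both arrays. For these genes, moving the floor or choosing another probe set could not change a measured ratio. Their ranges come only from the scaling alternatives and from adding 16 to signals in place of a floor. Scaling to a common median moved the median of all genes by -0.11, and with it Ssbp2 also passed 2-fold, for 2 members and 2 probe sets lower in place of 1 each; relative to that shift Ssbp2 did not. With the floor at the 30th percentile 2 member probe sets were lower, since a dim Ssbp2 probe set then had a ratio. At 1.5-fold 2 members were lower and 1 higher, where 4.85% and 7.11% of all measured genes were. Of the member probe sets 3 were lower and 1 higher at 1.5-fold, and at 3-fold 0 were lower. No share over all features is given here for probe sets at 1.5-fold, for 3-fold, for the common median or for the 30th percentile floor. The counts under those settings therefore cannot be compared with the whole array. The largest probe set of Cbfa2t3 by ratio (-0.73) is the only member value that moved by more than 1 SD. The dim Ssbp2 probe sets are limited by their nearness to the floor.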
